A study of Mus musculus with 6 samples.

Results

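The 8 genes described here act, or were proposed to act, in iodide transport and recycling in the thyroid follicular cell. They are *Slc5a5*, *Slc26a4*, *Slc26a7*, *Ano1*, *Iyd*, *Kcnq1*, *Kcne2* and *Slc5a8*. They were taken by symbol from a table of read counts for 21878 genes, in which all 8 are listed. No measured value served as a rule for the choice, but earlier results of these data were known when it was made. The counts come from RNA-seq of thyroid glands of female mice at 12 weeks, with 3 libraries labelled *Thy-Tet1*+/+ (genotype WT) and 3 labelled *Thy-Tet1*-/- (genotype TET1 KO). Per the study's methods, the knockout mice were bred from *Tet1* flox/+ mice and mice with a Cre recombinase transgene active in thyroid follicular cells, and the controls were their wild-type littermates. *Tet1* encodes a dioxygenase that oxidises 5-methylcytosine, chiefly at CpG dinucleotides. The labels give no further treatment and no pooling, and they do not say which mice shared a litter.

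Follicular cells concentrate iodide from blood through the sodium/iodide symporter at their basolateral face, using the sodium gradient across the membrane. Iodide then leaves through the apical membrane into the lumen, where it is coupled to tyrosines of thyroglobulin. When thyroglobulin is broken down for hormone release, iodotyrosine deiodinase strips iodide from the uncoupled iodotyrosines and returns it to the cell, and a potassium channel of KCNQ1 and KCNE2 supports the uptake step.

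Total counts lay between 8867683, in *Thy-Tet1*+/+ replicate 1, and 19950898, and 3 counts corresponded to 0.150 to 0.338 CPM (counts divided by the library total and scaled up; the values per gene below use library sizes scaled by TMM). *Tet1* had 5.69, 3.80 and 3.44 CPM in *Thy-Tet1*+/+ and 9.37, 9.60 and 12.2 CPM in the libraries labelled *Thy-Tet1*-/-. It was thus higher in the libraries labelled as the knockout, against the label, by 1.28 ± 0.27 (log2 fold change ± SE; edgeR quasi-likelihood test, adjusted p = 0.101). The sources used here do not say which exons are floxed, and the counts cover the gene as a whole, so every direction below is one between labels. Defining thyroid genes were abundant in all 6 libraries: the 10 follicular cell markers had a mean log2 CPM of 8.32 to 8.47 in *Thy-Tet1*+/+ and 8.06 to 8.30 in the libraries labelled *Thy-Tet1*-/-. The list differed by -0.19 between groups, and by 0.03 with overlap once *Tshr* was left out, a choice made after the values were seen. These are whole glands, in which the number of follicular cells and the RNA per cell cannot be told apart.

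The stretches of genome around the starts of 4 members are shown because TET1 acts at CpG and because these 4 cover the range of the data: the symporter and *Ano1*, whose fitted changes were above 0, *Iyd*, the member with the largest fitted change, and *Slc26a4*, which was barely detected. Each runs 5′ to 3′ on the gene's strand from 250 bases before to 50 after a RefSeq transcript start (GRCm38.p6), with every CpG in capitals. They lie at chr8:70892708-70893007 (minus strand) for *Slc5a5*, chr7:144738524-144738823 (minus) for *Ano1*, chr10:3540024-3540323 (plus) for *Iyd* and chr12:31559935-31560234 (minus) for *Slc26a4*. The *Ano1* start used, chr7:144738573, lies inside the gene span given below, which begins at 144751974 on the minus strand.
Slc5a5: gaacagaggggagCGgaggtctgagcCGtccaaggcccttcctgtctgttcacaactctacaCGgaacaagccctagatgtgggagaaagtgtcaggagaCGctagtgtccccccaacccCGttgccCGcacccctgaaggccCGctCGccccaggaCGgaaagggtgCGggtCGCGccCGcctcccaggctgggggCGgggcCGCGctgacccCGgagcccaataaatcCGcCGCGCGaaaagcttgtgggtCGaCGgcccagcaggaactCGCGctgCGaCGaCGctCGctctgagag
Ano1: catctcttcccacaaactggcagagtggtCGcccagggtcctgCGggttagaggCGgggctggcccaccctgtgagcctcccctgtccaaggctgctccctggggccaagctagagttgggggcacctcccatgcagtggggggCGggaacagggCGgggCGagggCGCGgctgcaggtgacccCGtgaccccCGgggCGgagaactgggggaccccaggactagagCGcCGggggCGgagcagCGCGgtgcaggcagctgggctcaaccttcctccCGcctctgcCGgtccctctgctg
Iyd: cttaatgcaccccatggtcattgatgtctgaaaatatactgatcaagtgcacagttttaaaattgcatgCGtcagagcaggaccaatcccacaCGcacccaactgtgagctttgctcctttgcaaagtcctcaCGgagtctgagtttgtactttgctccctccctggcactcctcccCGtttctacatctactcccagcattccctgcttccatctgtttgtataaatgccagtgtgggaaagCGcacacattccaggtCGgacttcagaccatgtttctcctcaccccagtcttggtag
Slc26a4: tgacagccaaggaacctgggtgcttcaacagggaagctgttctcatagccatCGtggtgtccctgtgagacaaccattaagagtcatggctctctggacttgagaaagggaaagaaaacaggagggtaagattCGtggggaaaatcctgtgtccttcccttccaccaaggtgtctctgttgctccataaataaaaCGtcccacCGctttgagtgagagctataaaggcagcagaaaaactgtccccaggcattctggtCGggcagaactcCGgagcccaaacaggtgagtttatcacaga

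The *Slc5a5* stretch holds 29 CpG and that of *Ano1* 18, against a median of 7 over 32841 such windows. *Iyd* and *Slc26a4* have 6 each. Of all windows, 87.1% have fewer CpG than *Slc5a5*, 70.3% fewer than *Ano1* and 43.6% fewer than *Iyd*. The letters TATAAA, searched on both strands, occur once in the *Iyd* and once in the *Slc26a4* stretch and in 13.6% of all windows. TGACG, the core of a cyclic AMP response element, occurs once in the *Iyd* stretch, in none of the other 3 shown, and in 20.8% of all windows. The window of *Slc5a8*, whose fitted log2 fold change was -0.13, holds 20 CpG, and those at the *Kcne2* starts hold 9 and 1. No window was matched for *Slc26a7* or *Kcnq1*. DNA methylation was not measured in these libraries, and whether CpG number goes with the direction of change was not tested.

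Per unit of transcript length, the 8 members differed widely. In TPM (counts divided by the length of the longest annotated transcript and scaled to a common total, computed here), the mean level over the 6 libraries was 1515 for *Iyd*, 478 for *Slc26a7*, 129 for *Slc5a5*, 71.3 for *Slc5a8*, 15.2 for *Ano1*, 6.73 for *Kcnq1*, 0.304 for *Kcne2* and 0.163 for *Slc26a4*. The recycling enzyme was therefore listed at 11.7 times the TPM of the symporter, and the apical carrier *Slc26a7* at 3.70 times. Neighbours in this order did not overlap in range over the 6 libraries, except for *Slc5a5* and *Slc5a8* and for *Kcne2* and *Slc26a4*. *Slc5a5* ranged from 82.6 to 166 TPM and *Slc5a8* from 54.6 to 95.1 TPM, but *Slc5a5* was the higher of the pair within 6 of 6 libraries. *Kcne2* was the higher of its pair in 3 of 6 libraries, so the order of these 2 genes is not resolved.

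Set among their relatives by mean TPM, a member stood first in the sodium-coupled SLC5 carriers, the SLC26 anion exchangers and the KCNQ potassium channels, but not among the anoctamins. Of 11 *Slc5a* genes in the table, 5 exceeded 1 TPM: *Slc5a5*, the myo-inositol carrier *Slc5a3* at 109 TPM, *Slc5a8*, the multivitamin carrier *Slc5a6* at 13.0 TPM and *Slc5a9* at 12.5 TPM. *Slc5a3* lay above *Slc5a5* in *Thy-Tet1*+/+ replicate 3 (106 against 82.6 TPM) and *Thy-Tet1*-/- replicate 1 (134 against 122 TPM). The order of these 2 genes thus differed between libraries. Among 11 *Slc26a* genes, 6 did so, with *Slc26a7* followed by *Slc26a10* at 213 TPM, *Slc26a11* at 14.7, *Slc26a6* at 3.92, the sulphate carrier *Slc26a2* at 3.12 and *Slc26a9* at 1.36 TPM. *Ano1*, a calcium-activated chloride channel that also passes iodide, came behind *Ano6* (77.9 TPM), *Ano10* (61.3 TPM) and *Ano5* (32.7 TPM) and close to *Ano9* (14.0 TPM) and *Ano8* (11.7 TPM). *Kcnq1* had the highest level of the 5 *Kcnq* genes. For the KCNE subunits that partner KCNQ1, *Kcne4* (3.46 TPM) and *Kcne3* (2.98 TPM) both lay above *Kcne2*. The plot of members and relatives by family shows this order.

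**Figure D1:**
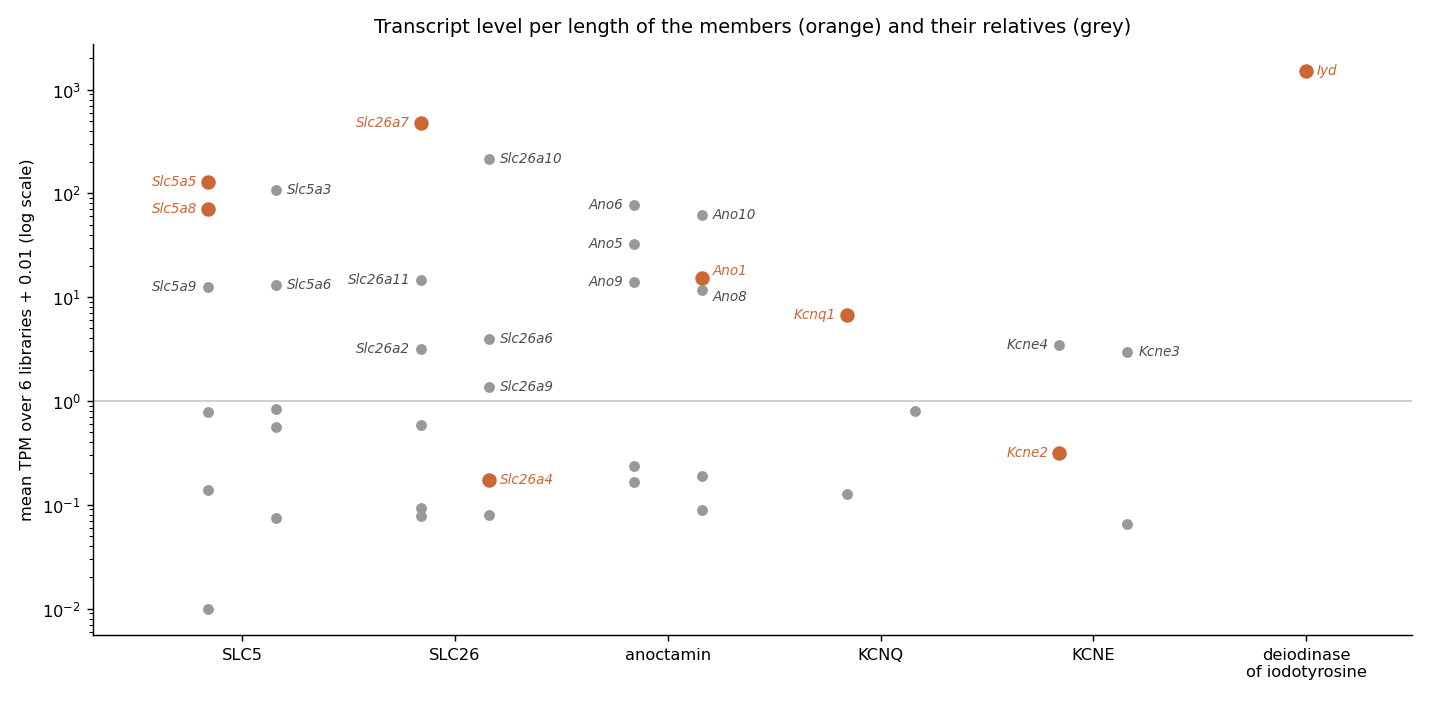
Mean TPM over 6 libraries, plus 0.01 and on a log scale, of each member (orange) and of other genes of its family (grey), 1 column per family; names are given for members and for the plotted genes above 1 TPM, marked by the horizontal line. *Iyd* stands highest at 1515 TPM, while *Slc26a4* and *Kcne2* lie below 1 TPM.

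*Slc5a5* (NCBI gene 114479; chr8:70882889-70892757, minus strand, positions here and below from GENCODE M21 on mm10) encodes the sodium/iodide symporter, the uptake step itself. It had 142, 106 and 82.6 CPM in *Thy-Tet1*+/+ replicates 1, 2 and 3 and 106, 150 and 103 CPM in the libraries labelled *Thy-Tet1*-/-. The groups overlapped throughout, with the lowest value in one *Thy-Tet1*+/+ library and another library of that group close to the highest. The log2 fold change, labelled *Thy-Tet1*-/- over *Thy-Tet1*+/+, was 0.12 ± 0.24 (SE; 95% interval -0.45 to 0.68; edgeR quasi-likelihood test, adjusted p = 0.839). Its sign was not stable, since the value was -0.05 without *Thy-Tet1*+/+ replicate 3 and -0.08 without *Thy-Tet1*-/- replicate 2.

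On the way out of the cell, *Slc26a7* (NCBI gene 208890; chr4:14502430-14621805, minus strand), an anion exchanger needed for normal hormone synthesis, had its lower values in the libraries labelled *Thy-Tet1*-/- but did not pass the test. It had 754, 782 and 1128 CPM in *Thy-Tet1*+/+ and 713, 580 and 609 CPM in the other group. All 3 libraries labelled *Thy-Tet1*-/- lay below all 3 controls, although the gap between the nearest libraries was small beside the spread of the controls. The log2 fold change was -0.49 ± 0.19 (SE; 95% interval -0.95 to -0.02; edgeR, adjusted p = 0.244). It did not pass the study's limits, which ask for a change of more than 1.5-fold in either direction together with p below 0.05. That p is read here, and for every gene below, as unadjusted. For *Slc26a7* the unadjusted p was 0.042 (edgeR quasi-likelihood test), so only the size of the fold change fell short. Without *Thy-Tet1*+/+ replicate 3, its highest library, the value was -0.28. It was past the limits without *Thy-Tet1*+/+ replicate 1 (-0.59) or without *Thy-Tet1*-/- replicate 1 (-0.60).

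*Slc26a4* (NCBI gene 23985; chr12:31519827-31559969, minus strand) encodes pendrin, the exchanger most often named for apical iodide efflux, and was barely seen. It had 1, 5 and 5 counts in *Thy-Tet1*+/+ and 2, 2 and 1 counts in the libraries labelled *Thy-Tet1*-/-. With so few reads it did not enter the test, and the depth cannot settle a difference: 11 pooled counts against 5 gave a ratio of 0.427 with an exact 95% interval of 0.116 to 1.33, which covers counting error only.

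*Ano1* (NCBI gene 101772; chr7:144588549-144751974, minus strand), the calcium-activated channel, had 25.2, 14.5 and 15.0 CPM in *Thy-Tet1*+/+ and 23.4, 24.9 and 23.0 CPM in the libraries labelled *Thy-Tet1*-/-. The latter lay close together, above 2 of the controls but below *Thy-Tet1*+/+ replicate 1, so the groups overlapped. The log2 fold change was 0.39 ± 0.23 (SE; 95% interval -0.16 to 0.94; edgeR adjusted p = 0.409). Without *Thy-Tet1*+/+ replicate 1, which is also the shallowest library, it was 0.69 (adjusted p = 0.096) and past the study's limits. *Slc5a8* (NCBI gene 216225; chr10:88885992-88929515, plus strand), a sodium-coupled monocarboxylate carrier found at the apical membrane and once proposed to carry iodide, had 116, 112 and 137 CPM in *Thy-Tet1*+/+ and 149, 104 and 80.7 CPM in the other group. Both its extremes fell in the libraries labelled *Thy-Tet1*-/-, which held the controls within their range, and the log2 fold change was -0.13 ± 0.23 (SE; 95% interval -0.67 to 0.42; edgeR adjusted p = 0.813).

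Both subunits of the potassium channel were low. *Kcnq1* (NCBI gene 16535; chr7:143106362-143427042, plus strand), which forms the pore, had 6.64, 8.02 and 6.99 CPM in *Thy-Tet1*+/+ and 5.23, 5.98 and 4.67 CPM in the libraries labelled *Thy-Tet1*-/-, on 56 to 150 counts per library. The groups did not overlap, and the log2 fold change of -0.45 ± 0.22 (SE; 95% interval -0.98 to 0.09; edgeR, adjusted p = 0.333) did not pass the test. Its exons overlap the antisense transcript *Kcnq1ot1* by 121 bp, that transcript has no row of its own in the table, and the sources used here do not say whether reads were counted by strand, so part of the count is uncertain. *Kcne2* (NCBI gene 246133; chr16:92292389-92298129, plus strand), the regulatory subunit, had 2, 0 and 13 counts in *Thy-Tet1*+/+ and 0, 0 and 1 in the other group. Its pooled ratio was 0.063 (exact 95% interval 0.001 to 0.407, counting error only), but 13 of the 16 counts in the whole series came from 1 library, *Thy-Tet1*+/+ replicate 3, and it was too low to be tested.

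*Iyd* (NCBI gene 70337; chr10:3540240-3554877, plus strand), the iodotyrosine deiodinase that recycles iodide, was the only member past the study's limits, and was lower. It had 618, 1076 and 990 CPM in *Thy-Tet1*+/+ and 613, 593 and 534 CPM in the libraries labelled *Thy-Tet1*-/-. The 3 latter values lay within a narrow band, 2 controls lay far above it, and *Thy-Tet1*+/+ replicate 1 lay just above its upper edge. The log2 fold change was -0.63 ± 0.22 (SE; 95% interval -1.15 to -0.10; edgeR quasi-likelihood test), a level 0.648 times that of the controls, and the adjusted p over 14143 genes was 0.204. It was -0.83 without *Thy-Tet1*+/+ replicate 1 and -0.47 without *Thy-Tet1*+/+ replicate 2, the latter no longer past the limits. Leaving out *Thy-Tet1*+/+ replicate 3 (-0.55) or *Thy-Tet1*-/- replicate 1 (-0.69), 2 (-0.65) or 3 (-0.58) ended the call as well. The plot of the members by library shows both the gap and the position of replicate 1.

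**Figure D2:**
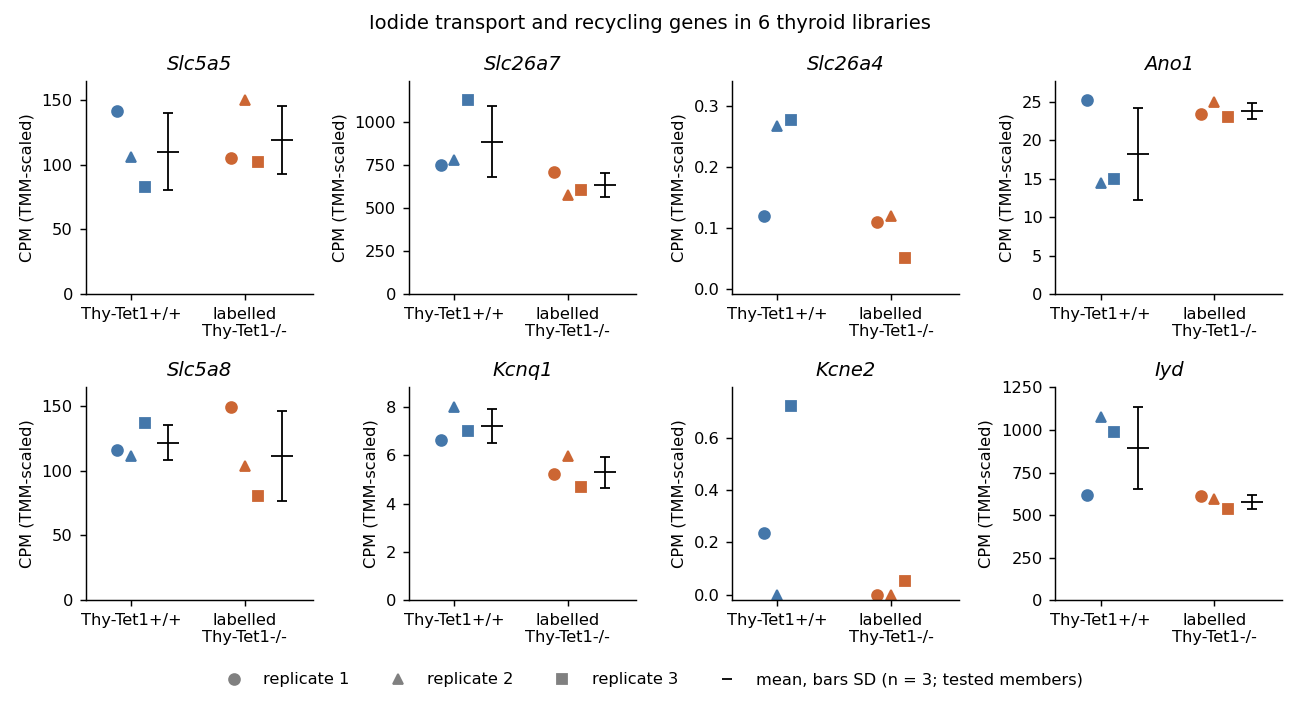
CPM (TMM-scaled) of each of the 8 members in the 6 libraries, 1 panel per gene with its own linear axis; symbols mark replicates, and for the 6 tested members the black marks give the mean and SD (n = 3). *Slc26a7*, *Kcnq1* and *Iyd* show no overlap between groups among the tested members, while *Slc5a5*, *Ano1* and *Slc5a8* overlap.

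Counted together, 6 of the 8 members passed the filter on low counts and were tested. Of these 6, 1 was past the limits and lower, against 3.66% of all 14143 tested genes, and 0 were past them and higher, against 5.54%. None had an adjusted p under 0.05 by edgeR's quasi-likelihood test, against 0.113% of all genes, while 2 had an unadjusted p under 0.05. By DESeq2 or limma-voom, too, none had an adjusted p under 0.05. The groups did not overlap in 3 of 6, each time with the libraries labelled *Thy-Tet1*-/- below, against 26.8% of all tested genes without overlap in either direction. The median log2 fold change of the 6 was -0.29, against 0.001 over all genes. These are few genes from one pathway, and they are not replicates of each other.

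A ratio between 2 genes inside a library does not depend on how libraries are scaled. The log2 ratio of *Iyd* to *Slc5a5* was 3.02 ± 0.78 (SD, n = 3) in *Thy-Tet1*+/+ and 2.30 ± 0.29 (SD, n = 3) in the knockout-labelled group. The difference was -0.71 with overlapping groups (two-sided exact permutation p = 0.3, where 0.1 is the smallest that 3 against 3 can give). For *Slc26a7* to *Slc5a5* the ratio was 3.02 ± 0.69 and 2.42 ± 0.42 (SD, n = 3; exact permutation p = 0.4). All 7 ratios to *Slc5a5* overlapped between groups, with exact permutation p from 0.2 to 0.5 and Benjamini-Hochberg adjusted p from 0.42 to 0.50. Over all 15 pairs of tested members, only *Kcnq1* to *Ano1* did not overlap, with a difference of -0.87 (exact permutation p = 0.1, adjusted p = 0.50 over the 15). With 0.1 as the smallest p, none of these ratios could have passed a threshold of 0.05, so the p-values do not show whether a member changed relative to the symporter.

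Across the 6 libraries, *Iyd* and *Ano1* ran opposite to each other (Pearson r of log2 CPM -0.96), *Iyd* ran with *Kcnq1* (0.85) and *Slc26a7* (0.76), and *Slc5a5* ran with *Ano1* (0.71) and against *Slc26a7* (-0.68). These are descriptions over 6 points that span both groups, each point being 1 library for both genes. The named genes most like each member, among 9943 others (9944 for *Kcnq1*) with a mean of at least 10 CPM, were *Stim1* and *Sspn* for *Slc5a5* (r = 0.978 for both), *Gnpnat1* (0.990) for *Slc26a7*, and *Rassf10* and *Rufy3* for *Ano1* (0.994 for both). For *Slc5a8* they were *Tufm* (0.994) and *Tmem120a* (0.993). For *Kcnq1* they were the simple epithelial keratin *Krt7* (0.998) and *Reep3* (0.995), and for *Iyd* they were *Cdc42* (0.996) and *Itgb6* (0.994).

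Of 29 other genes of iodide handling and hormone synthesis, 28 were tested. Of these 28, 2 were past the limits and higher, against 5.54% of all tested genes, and 3 were past them and lower, against 3.66%. The groups did not overlap in 13, 3 of them higher and 10 lower, against 26.8% of all tested genes, of which 1768 were higher and 2025 lower. Their median log2 fold change was -0.22. The symporter runs on the sodium gradient kept by the sodium pump, and of the 3 beta subunits of that pump on the list, 2 were lower without overlap and 0 were past the limits. *Atp1b1* had 1737, 1940 and 1724 CPM in *Thy-Tet1*+/+ and 1291, 1265 and 1114 CPM in the libraries labelled *Thy-Tet1*-/-. Each of the latter lay well below each control, with a log2 fold change of -0.56 ± 0.13 (SE; edgeR adjusted p = 0.114). *Atp1b3* had a log2 fold change of -0.26 (adjusted p = 0.242) and *Atp1b2* of 0.24 (adjusted p = 0.831).

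Among the 7 other anion carriers and channels, 1 was past the limits: *Slc26a11*, a sulphate and anion transporter, with 6.76, 7.70 and 10.4 CPM in *Thy-Tet1*+/+ and 15.2, 15.7 and 17.4 CPM in the libraries labelled *Thy-Tet1*-/-. It was higher in each of the latter, by 0.95 ± 0.21 (log2 fold change ± SE; edgeR adjusted p = 0.104), and was the only gene of the 5 families past the limits. Neither of the 2 tested KCNE partners was past them. For the genes that attach iodide to thyroglobulin and make the peroxide for it, 0 of 6 were past the limits, with *Tg*, thyroglobulin, at -0.43 (adjusted p = 0.262). *Dio1*, the type 1 deiodinase, which releases iodide from hormone rather than from iodotyrosines, had 448, 259 and 384 CPM in *Thy-Tet1*+/+ and 236, 236 and 190 CPM in the other group, below every control, with a log2 fold change of -0.72 ± 0.22 (SE; edgeR adjusted p = 0.164), or -0.54 and no longer past the limits without *Thy-Tet1*+/+ replicate 1.

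Of the 7 regulators, *Tshr*, the thyrotropin receptor through which the symporter gene is normally induced, was the only pathway gene with an adjusted p under 0.05. It had 72.1, 76.2 and 94.7 CPM in *Thy-Tet1*+/+ and 18.2, 21.1 and 15.0 CPM in the libraries labelled *Thy-Tet1*-/-. It fell by 2.16 ± 0.17 on the log2 scale (SE; edgeR adjusted p = 0.047), with a wide gap between the groups. That call was lost with any 1 library left out (adjusted p from 0.066 to 0.190), while the fold change stayed between -2.29 and -1.67 under all 16 alternatives. *Nkx2-1*, a thyroid transcription factor, was past the limits and higher at 0.65 ± 0.22 (SE; adjusted p = 0.192), but was not past them without *Thy-Tet1*+/+ replicate 3 (0.46) or *Thy-Tet1*-/- replicate 1 (0.53) or 3 (0.64), and *Pax8*, a factor that activates *Slc5a5* and *Tg*, had 0.42 ± 0.11 (SE; adjusted p = 0.127). *Slc5a5*, at 0.12, lay between the receptor and the transcription factors in the plot of fold changes by role.

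**Figure D3:**
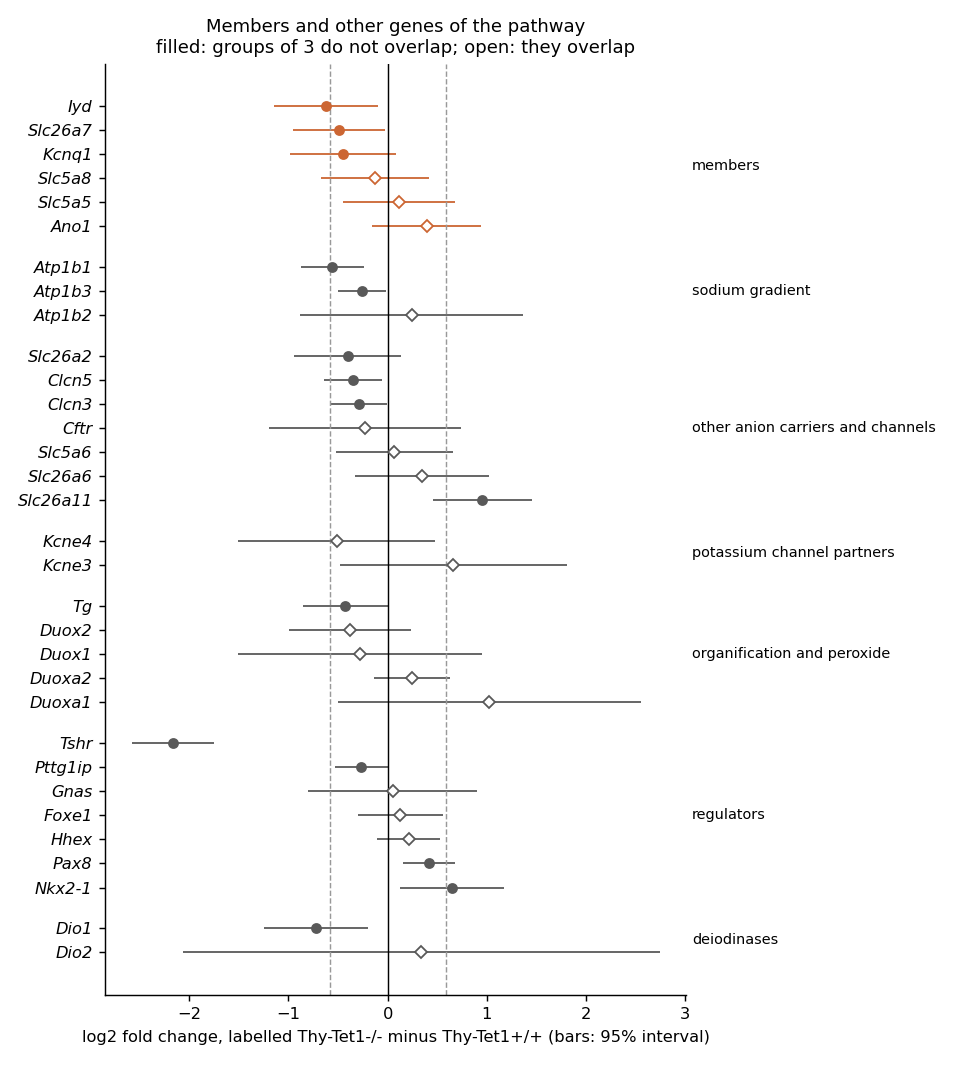
Log2 fold change, labelled *Thy-Tet1*-/- minus *Thy-Tet1*+/+, with 95% interval, of the 6 tested members (orange) and of other pathway genes (grey) by role; filled points mark genes whose groups of 3 do not overlap, and dashed lines the limits of 1.5-fold. *Iyd* is the only member whose point lies beyond a dashed line, and *Tshr* lies farthest out at -2.16.

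Some lists of cell type markers differed between the groups. The 10 epithelial markers had a mean log2 CPM of 7.82 to 8.26 in *Thy-Tet1*+/+ and 7.47 to 7.61 in the knockout-labelled libraries. The groups did not overlap, and 3 of the 10 (*Cdh1*, *Krt7* and *Krt8*) were past the limits and lower, against 3.66% of all tested genes. With libraries scaled to those 10 genes, *Iyd* had a log2 fold change of -0.09, *Slc26a7* of 0.02, *Kcnq1* of 0.06 and *Ano1* of 0.85, so the values of the first 3 lay within 0.1 of 0 relative to the epithelial list. This scaling moves the median of all genes by 0.50. The follicular cell list differed by -0.19 without overlap, and by 0.03 with overlap once *Tshr* was left out, a choice made after the values were seen. Against the full list of 10, *Ano1* (0.61) did not overlap between groups, while *Slc26a7* (-0.28), *Kcnq1* (-0.26), *Iyd* (-0.40) and *Slc5a5* (0.31) did. Against the list of 9, *Slc26a7* (-0.50) and *Kcnq1* (-0.47) did not overlap between groups, while *Iyd* (-0.62), *Ano1* (0.39) and *Slc5a5* (0.09) did. Which members overlapped thus depended on whether *Tshr* was in the list. Of the 16 marker lists, 4 did not overlap between groups: epithelial, follicular cell with *Tshr*, C cell and salivary gland. Of all tested genes, taken singly, 26.8% did not overlap. The mean log2 CPM of 9 skeletal muscle genes ran from 6.33 to 9.34 in *Thy-Tet1*+/+ and from 0.84 to 9.56 in the libraries labelled *Thy-Tet1*-/-. The 4 C cell genes had a mean of 7.02 to 8.27 against 8.60 to 8.84, with 0 of 4 past the limits. Taken singly, *Calca*, *Calcb*, *Chga* and *Scg2* each overlapped between groups. *Thy-Tet1*+/+ replicate 2, the lowest in this list, had 4612 CPM of *Calca* but 103 CPM of *Chga*, beside 57.2 CPM of the parathyroid gene *Pth*. The mean of the 3 parathyroid genes ran from 3.08 to 9.62 against 8.41 to 9.24. The mean of 6 adipocyte genes ran from 2.75 to 5.45 against 4.35 to 7.04. Of these 6, 3 were past the limits and higher, against 5.54% of all tested genes. Of 5 salivary gland genes, 1 was tested, and the mean of the list stayed below 0 in all 6 libraries. The part of these tissues in the members' values was not tested beyond a fit with a covariate for non-thyroid tissue, which gave -0.53 for *Iyd* and -0.48 for *Slc26a7*.

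The plot of fold changes by setting gathers these values. *Ano1* was positive and *Iyd* negative under all 16 alternatives, from 0.25 to 0.85 and from -0.83 to -0.09, whereas the other 4 tested members took both signs, from -0.08 to 0.58 for *Slc5a5*, from -0.42 to 0.36 for *Slc5a8*, from -0.60 to 0.02 for *Slc26a7* and from -0.55 to 0.06 for *Kcnq1*. The adjusted p of *Iyd* ran from 0.067 to 0.730 over those alternatives.

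**Figure D4:**
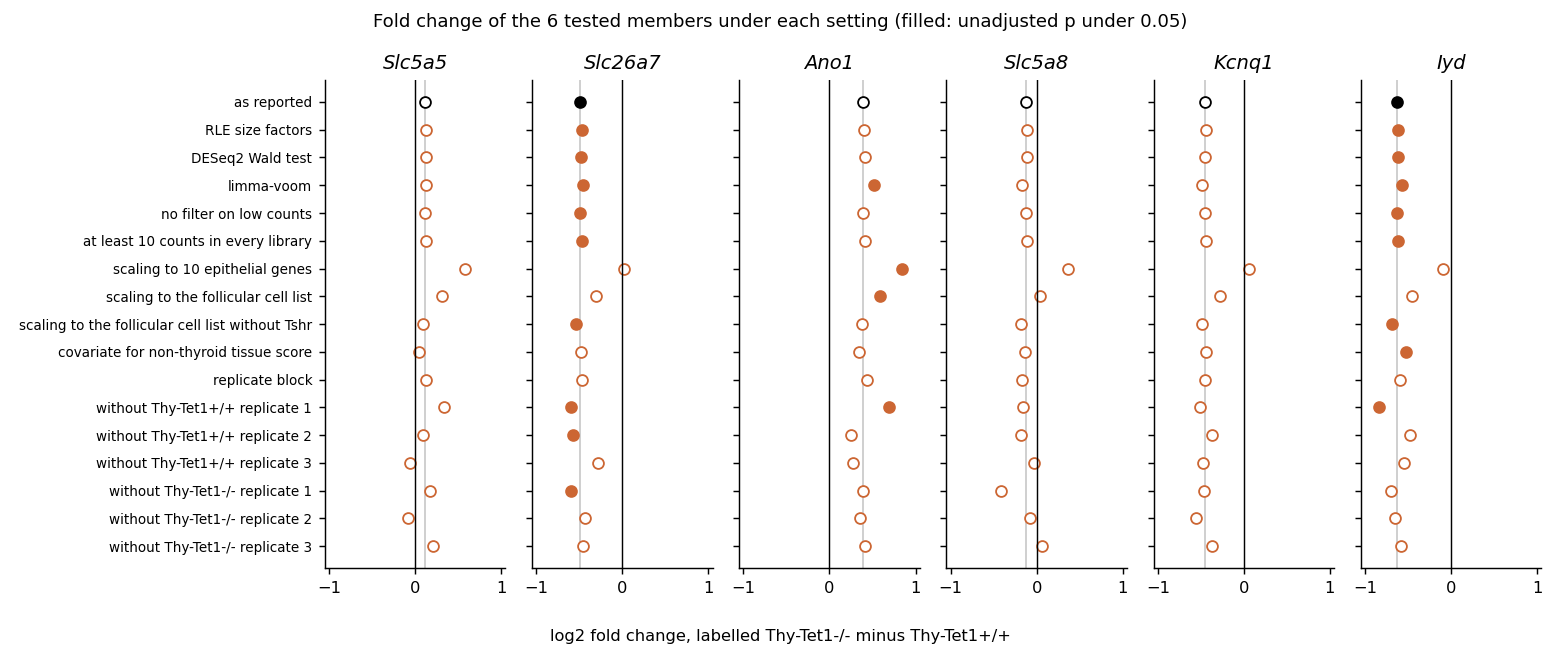
Log2 fold change of each tested member (1 panel each) as reported, in black, and under 16 alternatives, in orange, with 1 row per setting; filled points have an unadjusted p under 0.05, and the grey line marks the reported value. Most points stay near that line, and scaling to the 10 epithelial genes moves all 6 members upwards.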

How the data were processed

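RNA-seq counts of 6 mouse thyroid libraries, 3 per label, were analysed. The authors deposited the reads they counted on each gene, as whole-number counts with no normalization. The aligner and counter are not given in the sources used here, mm10 is named in the submitters' processing notes, and the deposited protocol speaks of retinas and names 2 library kits, one of them directional. No values were left over (0 unused columns), and 27 symbols turned into dates were restored from gene identifiers. Of 21878 genes, 4100 had no read.

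In R 4.3.3, edgeR 4.0.16 filtered genes (filterByExpr, 14143 kept), scaled libraries by TMM and compared groups with the quasi-likelihood test and Benjamini-Hochberg adjustment over all tested genes. Single values and ratios (log2 CPM, prior count 2) had two-sided exact permutation tests. SEs were derived from the fold change and its F statistic. The biological coefficient of variation was 0.327, and p-values measure the spread between these mice, whose litters are not labelled. TPM used the longest GENCODE M21 transcript, known for 94.3% of genes. Promoter windows are from RefSeq and matched 6 of 8 members. The code was tested on simulated data with known changes.

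The alternatives were RLE size factors, DESeq2 1.42.0, limma-voom (limma 3.58.1), no filter, a minimum of 10 counts per library, scaling to epithelial or follicular genes, a tissue covariate, the replicate block and each library left out. Named were the members, *Tet1*, pathway genes past the limits plus *Pax8*, *Tg* and *Tshr*, relatives above 1 TPM, and the 2 genes most like each member; values of some genes this rule covers are not reported here. *Atp1b1*, *Atp1b2*, *Atp1b3* and marker genes were named after their values were seen. The members and lists were chosen with earlier results of these data known.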

Additional observations from a re-analysis of the deposited data

How the results depend on the processing

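The number of members with an adjusted p under 0.05 was 0 under each of the 16 alternatives. The count of members past the limits and lower, 1 as reported, was 0 with limma-voom, with scaling to the epithelial or the follicular list and with the tissue covariate, and 0 to 2 with a library left out. It was 2 (*Iyd* and *Slc26a7*) without *Thy-Tet1*+/+ replicate 1 and 1 (*Slc26a7*) without *Thy-Tet1*-/- replicate 1. It was 0 without *Thy-Tet1*+/+ replicate 2 or 3 or *Thy-Tet1*-/- replicate 2 or 3. The count past them and higher, 0 as reported, was 1 with scaling to either list and 0 to 1 with a library left out. For the pathway genes, the count higher, 2 as reported, was 7 with epithelial scaling and 1 to 3 with a library left out, and the count lower, 3 as reported, was 1 with epithelial scaling and 2 to 4 with a library left out. Epithelial scaling also gave log2 fold changes of 0.0163 for *Slc26a7*, 0.365 for *Slc5a8*, 0.0581 for *Kcnq1* and 0.0765 for *Tg*, the reverse of their reported signs, and 1.76 for *Tet1* (adjusted p = 0.036, against 1.31 and 0.001 with DESeq2). By construction it moves all genes, with 98.4% of those past the limits higher, against 60.2% as reported and 85.8% with follicular scaling, which moves the median of all genes by 0.19 and gave 0.04 for *Slc5a8*. With a library left out, *Slc5a5* ran from -0.0843 to 0.336 and *Slc5a8* from -0.420 to 0.0562. The cause was not tested for the other settings. Over all genes, the number with an adjusted p under 0.05 was 16 as reported, 1162 with DESeq2, 1525 with epithelial scaling and 0 with the replicate block.

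With the replicate block, 0 members were past the limits, and *Iyd* had a log2 fold change of -0.59 (adjusted p = 0.385) and *Tshr* of -2.16 (adjusted p = 0.242). Deviations from the group mean had correlations of -0.17, -0.37 and -0.19 between same-numbered libraries. Of 6 libraries, 0 correlated best with their own number. These few correlations gave no sign of pairing by number, but they cannot exclude a shared litter, which the labels do not give. Depth limits *Slc26a4* and *Kcne2*, with 16 counts each in all.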
